A study of Mus musculus with 69 samples.

Results

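The late risers of ZHTc6 cells are 146 genes, of 5187 with a name on the arrays, that stood highest 96 h and 120 h after an *Oct3/4* transgene was turned on in mouse ES cells. They are measured by 150 of the 22575 oligos of the array, and each such oligo with its gene is called a member here. The choice was made among the 6729 oligos with a single gene name. An oligo had to lie below 0.3 at 24 h in ZHTc6 cells and below 0.5 at 120 h in ZHBTc4 cells, both as the log2 ratio to 0 h averaged over 3 samples. Of the 3841 named oligos that met both limits, the 150 with the highest mean of 96 h and 120 h in ZHTc6 cells were taken. The members were thus chosen by the ZHTc6 values at 24 h, 96 h and 120 h and by the ZHBTc4 values at 120 h, which are given as a description with no p-value.

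ZHTc6 cells are *Pou5f1*+/- ES cells that carry an *Oct3/4* transgene under control of tetracycline (Tet), and withdrawal of Tet turns the transgene on. In ZHBTc4 cells, a line derived from ZHTc6, neither endogenous copy of *Pou5f1* works. Their Oct3/4 comes only from a transgene that is active without Tet and is shut off when Tet is added. Each is a single ES cell line, both were grown without feeder cells in medium with LIF, and RNA was taken at 24 h, 48 h, 72 h, 96 h and 120 h (days 1 to 5) after the change in Tet. Each of the 3 samples per line and time was hybridised against 0 h RNA of the same line on a dye-swapped pair of arrays (60 arrays), and 9 further arrays set single samples against a common reference RNA (3 of ZHTc6 and 3 of ZHBTc4 cells at 0 h, and 3 of EB5 ES cells after siRNA). The values are log2 ratios, so that 1 is a doubling over 0 h and -1 a level of 50% of it, and no absolute level can be read from them.

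Oct3/4, encoded by *Pou5f1*, is a POU-domain factor that keeps ES cells undifferentiated and binds the octamer sequence. ES cells differentiate both when its level is raised and when it is lost. The primitive streak is the region of the early embryo through which cells leave the epiblast to form mesoderm and endoderm. Its cells switch on a set of T-box, homeobox and basic helix-loop-helix factors together with Fgf, Wnt and Nodal signals.

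The oligo of *Pou5f1*, which cannot tell the transgene from the endogenous gene, averaged 0.12, 0.17, 0.93, 0.38 and 0.69 in ZHTc6 cells and -2.12, -2.17, -2.45, -2.75 and -2.55 in ZHBTc4 cells, both in order of time. The keratins *Krt8* and *Krt18* and the endoderm factor *Gata6* stood at 3.51, 3.36 and 2.57 in ZHTc6 cells at 120 h, whereas *Gata4* and *Sox17* stood at 0.30 and 0.45. The 17 oligos of a trophoblast list had a median late mean of 0.13, the 7 of an endoderm list 0.20, and the 21 of a list of pluripotency genes -1.31. Of the last 21 oligos 18 were lower at 72 h, against 11.3% of all oligos. No member was in these 3 lists. The part of these cell types in the results was not tested, and in RNA from whole cultures more cells of a type and more RNA per cell cannot be told apart.

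In ZHTc6 cells the members as a group lay below the 0 h level for 2 days and above it from day 3. Their medians from day 1 to day 5 were -0.60, -0.50, 0.47, 1.14 and 1.12, and in ZHBTc4 cells the median stayed between -0.20 and -0.07. At 24 h 52 members (34.7%) lay below -1 in ZHTc6 cells, 31 lay from -1 to -0.5, 46 from -0.5 to 0 and 21 above 0. The lowest value at 24 h was that of *Tnpo1* (-2.71), whose product carries proteins into the nucleus, while its 3 oligos outside the set stood between -1.20 and -0.10. The set thus holds genes with an early low and genes without one. The 52 members with the deepest early values had medians of -1.34, -1.15, 0.33, 1.09 and 0.98 over the 5 days, and the 21 above 0 had medians of 0.20, 0.37, 0.78, 1.00 and 1.25.

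**Figure D1:**
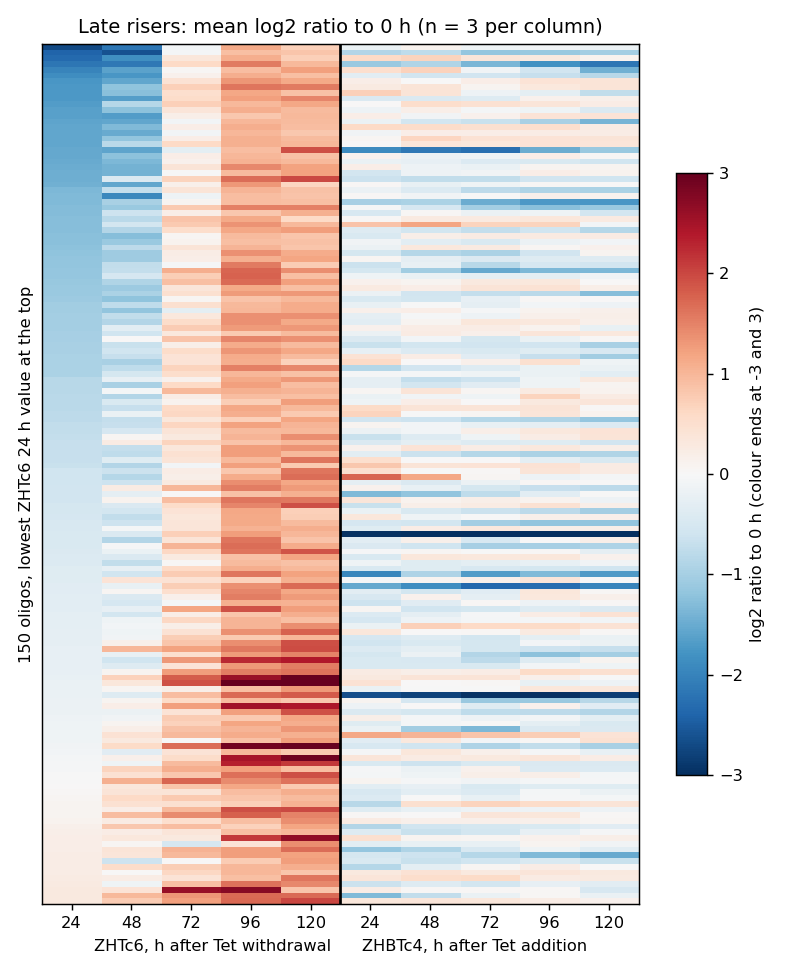
Mean log2 ratio to 0 h of the 150 members (rows, sorted by the ZHTc6 value at 24 h, lowest at the top) at 5 times in ZHTc6 cells (left) and ZHBTc4 cells (right), 3 samples per column. The 52 members below -1 at 24 h are blue in the first columns and turn red at 72 h to 96 h, while most of the ZHBTc4 columns stay pale apart from a few genes such as *Cth* and *Cpe*.

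The mean of 96 h and 120 h that ranked the members had a median of 1.11, with 8 members over 2 and 45 under 1. All 3 samples were above 0 for 150 members at 96 h and for 149 at 120 h. At the lower end *Ube2k* (0.87), *Hnrnpa3* (0.87) and *Cyfip1* (0.86) were just inside, and *Ube2n* (0.86), *Tmem30a* (0.86) and a second oligo of *Kdm6b* (0.86) just outside. The set thus has no gap at its border. Of 569 named oligos at or above the lowest member, the ZHBTc4 limit alone had removed 366, the 24 h limit alone 16, and both limits 37.

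The time points at 48 h and 72 h were not used to choose the members, although they share the 0 h RNA of each sample number with those that were. At 48 h 83 members were lower than at 0 h, or 55.3%, against 26.6% of all oligos, and 19 were higher, or 12.7%, against 33.9% (limma, adjusted p under 0.05 over 22148 oligos). Among the other 3691 named oligos that met both limits 59.2% were lower at 48 h. At 72 h 90 members were higher (60%, against 8.87% of all oligos) and 1 was lower (0.667%, against 11.3%), whereas of the other oligos that met both limits 8.35% were higher. Without ZHTc6 replicate 1, 2 or 3 the count of members higher at 72 h was 47, 59 and 55. Over both times 36 members were lower at 48 h and then higher at 72 h (24%, against 1.68% of all oligos). In all 73 were higher at 72 h but not at 48 h (48.7%, against 4.99%), and 17 were higher at both (11.3%, against 3.88%).

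The step between 48 h and 72 h was tested within each sample number, where the shared 0 h RNA cancels. It was upwards in 125 members (83.3%, against 24.2% of all oligos) and downwards in 1 (0.667%, against 25.9%), with a median of 1.03 over the members and -0.07 over all oligos. Of the other 3691 oligos that met both limits 50.6% stepped up, so that an upward step was common among oligos below 0.3 at 24 h. The step was larger in ZHTc6 than in ZHBTc4 cells for 116 members (77.3%, against 20% of all oligos and 49.3% of the other oligos that met both limits). It was smaller for 0 (limma, adjusted p under 0.05, against 20.1% of all oligos), with 1 lower at an unadjusted p under 0.05. The member that stepped down in ZHTc6 cells was *Asb4*, a part of a ubiquitin ligase, with -0.14, 0.15 and 0.16 at 48 h and -0.61, -0.66 and -0.23 at 72 h (difference -0.56, standard error 0.16, adjusted p = 0.0292).

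**Figure D2:**
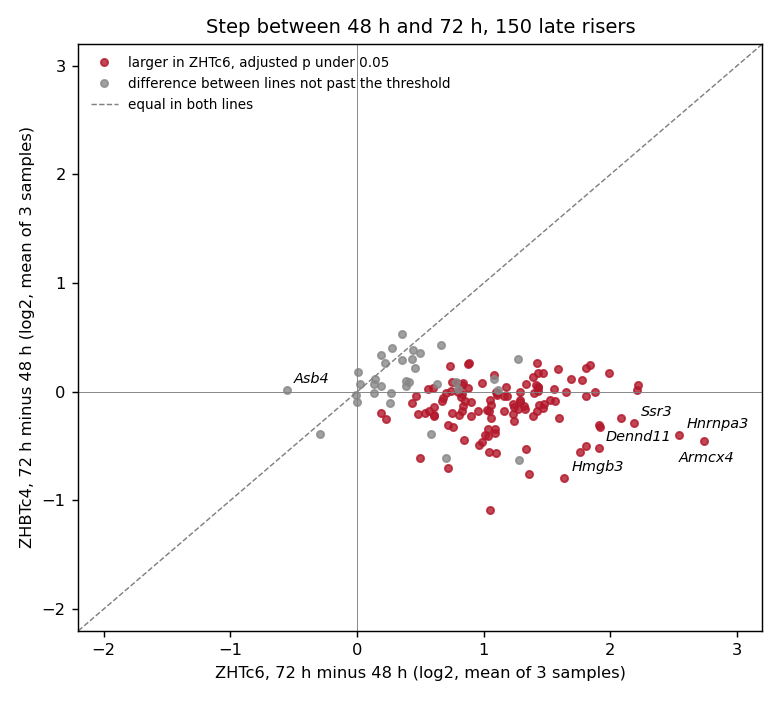
Log2 difference between 72 h and 48 h for the 150 members in ZHTc6 cells (horizontal) and ZHBTc4 cells (vertical), each point the mean of 3 samples. The 116 members whose step was larger in ZHTc6 cells (red) lie right of the line of equality, with *Armcx4* and *Hnrnpa3* farthest to the right.

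Of the 5 largest steps between 48 h and 72 h, 4 belonged to genes that had been low on both first days (*Armcx4*, *Hnrnpa3*, *Pafah1b1* and *Ssr3*). *Armcx4*, of a family of armadillo-repeat proteins on the X chromosome, gave -2.12, -1.88 and -2.45 at 48 h and 0.55, 0.58 and 0.63 at 72 h in ZHTc6 cells. In ZHBTc4 cells it gave -0.92, -0.67 and -1.15 at 48 h and -1.31, -1.16 and -1.62 at 72 h. The samples of the 2 times did not overlap in ZHTc6 cells, and the difference was 2.74 (standard error 0.12, adjusted p = 1.0e-04), larger than in ZHBTc4 cells by 3.19 (standard error 0.17, adjusted p = 4.7e-04). *Hnrnpa3*, which binds RNA in the nucleus, gave -2.83, -2.37 and -2.62 at 48 h, the lowest of all members, and 0.04, -0.11 and -0.12 at 72 h, a step of 2.54 (standard error 0.12). A second oligo of *Hnrnpa3*, outside the set, did not share this pattern, with means of -0.14 at 48 h and -0.08 at 72 h (step 0.06, adjusted p = 0.73). *Pafah1b1*, which acts with the motor dynein, stepped up by 2.21 (standard error 0.17), and *Ssr3*, a subunit of the translocon-associated complex of the endoplasmic reticulum, by 2.19 (standard error 0.17). *Enpp2*, which makes lysophosphatidic acid outside the cell, was the exception and stood at 0.71, 0.57 and -0.08 at 48 h and 3.01, 2.50 and 2.32 at 72 h. These 5 steps were each past the threshold (adjusted p between 1.0e-04 and 3.9e-04).

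Transcription factors and signals of the primitive streak and mesoderm supplied 5 members out of the 8 genes of that list with a name on the array, namely *Mesp1*, *Gsc*, *Lhx1*, *Fgf8* and *Flrt3*. The list holds 23 genes, so most of it has no name on the array. Of the 10 oligos of the list 5 were higher at 72 h (8.87% of all oligos), with a median of 0.53, against 0.002 over all oligos. Outside the set the oligos of *Hand1* had means of 96 h and 120 h of -0.05 and -0.17. *Pdgfra* and *Snai1* stood at 2.34 and 1.68 in ZHTc6 cells and at 2.28 and 1.51 in ZHBTc4 cells at 120 h. *Mesp1*, a basic helix-loop-helix factor of the earliest mesoderm, ranked first of all members. In ZHTc6 cells it stood at -0.15, -0.16 and -0.32 at 24 h, 0.62, 0.10 and 0.32 at 48 h and 2.14, 1.46 and 2.11 at 72 h. It reached 3.79, 3.28 and 3.71 at 96 h and 5.06, 4.05 and 4.71 at 120 h, or 4.61 ± 0.510 (SD, n = 3), while the highest ZHBTc4 sample of any time was 0.73. Its rise at 72 h was 1.90 (standard error 0.17, adjusted p = 0.00122), and its step over 48 h was larger than in ZHBTc4 cells by 1.53 (standard error 0.31, adjusted p = 0.00924).

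*Gsc*, a homeobox gene of the anterior streak, gave 0.38, 0.53 and 0.83 at 48 h, 1.83, 1.36 and 1.83 at 72 h and 3.18, 2.79 and 3.39 at 120 h in ZHTc6 cells, against -0.37, -0.70 and -0.70, then -0.44, -1.19 and -1.15, and -1.02, -0.97 and -0.95 in ZHBTc4 cells. The lines did not overlap at 48 h or 72 h, and the values of both lines at 120 h were used to choose the members. *Gsc* was higher already at 48 h (0.58, standard error 0.11, adjusted p = 0.00357) and rose to 1.67 at 72 h (standard error 0.17, adjusted p = 0.00174). *Lhx1*, a LIM-homeobox gene of the streak and its derivatives, was later and more variable. It gave 0.48, 0.91 and 0.25 at 72 h, 3.28, 1.89 and 2.23 at 96 h and 4.03, 1.95 and 2.80 at 120 h, so that sample 1 was the highest at both late times, and its value of 0.55 at 72 h did not pass the test (adjusted p = 0.0931).

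*Fgf8*, a growth factor that streak cells secrete, reached 1.75, 1.09 and 1.33 at 120 h, and *Flrt3*, a membrane protein of the streak and anterior endoderm, reached 1.62, 0.55 and 1.31. *Flrt3* was lower at 48 h (-0.61, standard error 0.11), stood at 0.27 at 72 h, and stepped up by 0.88 between them (adjusted p = 0.00197). *Fgf8* passed at 72 h with 0.51 (adjusted p = 0.0448), a call lost without any 1 of the ZHTc6 replicates (0.45 to 0.56) or without ZHBTc4 replicate 2. A second oligo of *Fgf8* was kept out by its 24 h value of 0.74 and reached 3.02 at 120 h. The 2 oligos of the gene thus shared direction and differed in size.

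Of 14 named genes of Wnt, Nodal and Bmp signalling 2 were members. *Wnt5b*, a secreted ligand, gave 1.34, 0.87 and 1.44 at 72 h and 2.78, 2.27 and 2.51 at 96 h in ZHTc6 cells, against 0.03, -0.75 and -0.41 and 0.36, -0.07 and 0.11 in ZHBTc4 cells. It rose by 1.22 at 72 h (standard error 0.17, adjusted p = 0.00447). The larger step of *Wnt5b* in ZHTc6 cells (1.41, standard error 0.30, adjusted p = 0.0122) was no longer called without ZHTc6 replicate 3 (1.34). *Ptk7*, a receptor-like protein of planar cell polarity, was among the earliest members, with 1.16, 0.92 and 1.12 at 48 h (mean 1.06, the highest of all members at that time, adjusted p = 1.0e-04) and 1.91, 1.75 and 1.58 at 72 h.

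**Figure D3:**
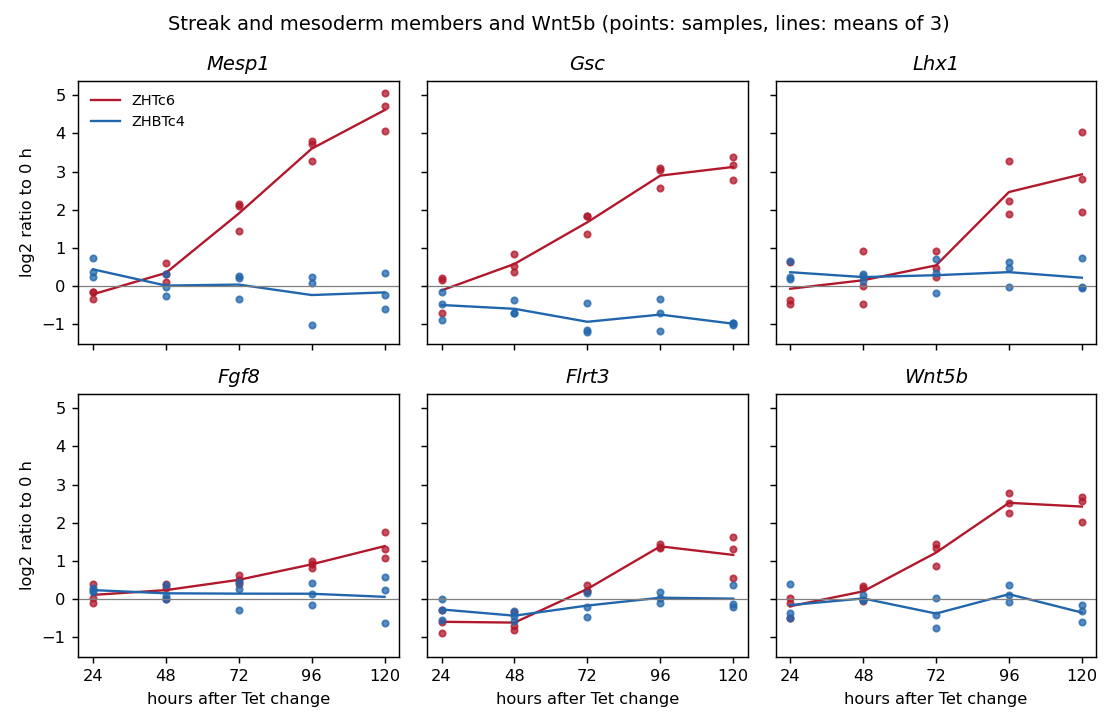
Log2 ratio to 0 h over time for *Mesp1*, *Gsc*, *Lhx1*, *Fgf8*, *Flrt3* and *Wnt5b* in ZHTc6 cells (red) and ZHBTc4 cells (blue), with samples as points and means of 3 as lines. *Mesp1* reaches a mean of 4.61 in ZHTc6 cells at 120 h, and the 3 samples of *Lhx1* spread from 1.95 to 4.03 there.

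The 250 bases before the start site of *Mesp1* and *Gsc*, which ranked first and second, and of *Wnt5b* are shown because each holds a searched motif. The promoters of *Lhx1* and *Flrt3* held none, and of the other 2 promoters of *Wnt5b* 1 held a Stat motif. The sequences come from RefSeq promoters of build GRCm38.p6, read 5′ to 3′ on the strand of the gene. Capitals mark the Tcf and Lef motif CTTTGAT in *Mesp1* (31 to 25 bases before the start) and in 1 of the promoters of *Wnt5b* (71 to 65 bases before it), and the TATA motif TATAAA in *Gsc* (164 to 159 bases before it).
*Mesp1* (chr7:79793591-79793840, minus strand): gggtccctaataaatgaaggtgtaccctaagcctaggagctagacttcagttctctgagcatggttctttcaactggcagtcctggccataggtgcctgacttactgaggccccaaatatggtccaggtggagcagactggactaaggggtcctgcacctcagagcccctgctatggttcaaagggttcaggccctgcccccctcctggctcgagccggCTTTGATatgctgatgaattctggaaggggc
*Gsc* (chr12:104473237-104473486, minus strand): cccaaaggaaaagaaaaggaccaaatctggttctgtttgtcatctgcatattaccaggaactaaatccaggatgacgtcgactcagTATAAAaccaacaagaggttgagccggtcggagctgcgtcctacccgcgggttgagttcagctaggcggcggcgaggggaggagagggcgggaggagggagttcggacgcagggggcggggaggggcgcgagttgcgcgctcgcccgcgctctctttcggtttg
*Wnt5b* (chr6:119449387-119449636, minus strand): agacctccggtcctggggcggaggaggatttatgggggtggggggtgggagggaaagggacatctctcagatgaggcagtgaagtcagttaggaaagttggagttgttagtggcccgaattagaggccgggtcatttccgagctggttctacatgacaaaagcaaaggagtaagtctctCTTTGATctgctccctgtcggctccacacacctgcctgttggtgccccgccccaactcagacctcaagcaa

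Interferon response and antigen presentation was the list with the next largest share of members, 6 of 13 named genes. At 72 h 11 of its 13 oligos were higher (8.87% of all oligos), with a median of 0.95. The median of the mean of 96 h and 120 h was 1.67, against -0.03 over all oligos, and 6 of the 13 oligos are members chosen by that mean. In ZHBTc4 cells the oligos of the list outside the set were high late on. They stood at 2.93 (*Rsad2*), 2.14 (*Bst2*), 2.07 (*B2m*), 1.72 (*Psme2*), 1.69 (*Tap1*), 1.07 (*Gbp2*) and 0.89 (*Ifngr1*) at 120 h. The 6 members ran from -0.78 (*Irf1*) to 0.12 (*Psmb10*) there. The limit on ZHBTc4 at 120 h kept such oligos out, so that the contrast of the lines among the members at that time is set by the choice. In ZHTc6 cells the late means of these 7 ran from 0.07 (*Rsad2*) to 2.53 (*Gbp2*). *Irf1* encodes a transcription factor of the interferon response. It gave -0.73, -0.58 and -0.44 at 24 h, 0.32, 0.14 and 0.27 at 48 h and 1.01, 1.00 and 1.00 at 72 h, and averaged 1.53 ± 0.0271 (SD, n = 3) at 96 h in ZHTc6 cells. In ZHBTc4 cells *Irf1* was lower, with -0.51, -0.54 and -0.56 at 72 h and -0.87, -0.63 and -0.58 at 96 h. The lines did not overlap at 72 h, and the ZHTc6 values at 96 h were used to choose the members. The step of *Irf1* over 48 h was larger in ZHTc6 cells by 1.08 (standard error 0.09, adjusted p = 8.4e-04).

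*Psmb8* and *Psmb10* encode catalytic subunits of the immunoproteasome, which cuts proteins into peptides for class I antigen presentation. *Psmb8* gave 0.69, 0.61 and 0.80 at 48 h, 1.80, 1.80 and 1.84 at 72 h and 3.11, 3.03 and 3.06 at 120 h in ZHTc6 cells. In ZHBTc4 cells it gave 0.76, 0.19 and 0.20 at 48 h, -0.13, 1.09 and 0.23 at 72 h and -0.23, 0.14 and 0.05 at 120 h, with sample 2 the highest of its line at 72 h. The ZHTc6 samples lay close together at each of these times. *Psmb8* rose by 1.81 at 72 h (standard error 0.21, adjusted p = 0.0025). The difference of its step between the lines was 1.10 and did not pass the test (adjusted p = 0.0787). *Psmb10* was lower in size, with 1.20, 1.20 and 1.31 at 72 h and 2.07, 1.99 and 1.95 at 120 h, and passed at 48 h (0.77) and 72 h (1.23, adjusted p = 3.1e-04).

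*Tap2*, a subunit of the transporter that brings peptides into the endoplasmic reticulum, gave 0.84, 0.74 and 0.89 at 72 h and 2.16, 1.59 and 2.07 at 120 h. *Il15ra*, the receptor chain that presents interleukin-15, gave 1.10, 0.66 and 1.19 at 72 h and 2.20, 1.90 and 1.74 at 96 h. Both rose at 72 h (0.83, adjusted p = 0.0052, and 0.98, adjusted p = 0.00689), although *Il15ra* lost its call without ZHTc6 replicate 1 (0.92). Their larger steps in ZHTc6 cells (0.75 and 0.70) were lost without ZHTc6 replicate 1 or 3 or ZHBTc4 replicate 2, and that of *Tap2* also without ZHBTc4 replicate 3 (range of *Tap2* 0.56 to 0.76 and of *Il15ra* 0.59 to 0.65 in these cases). *Parp9*, an ADP-ribosyltransferase of the interferon response, differed in that it was lower at 48 h (-1.07) and had a value of 0.22 a day later that did not pass (adjusted p = 0.372). *Psmb8* and *Tap2* are neighbours on chromosome 17 with no annotated gene between them.

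**Figure D4:**
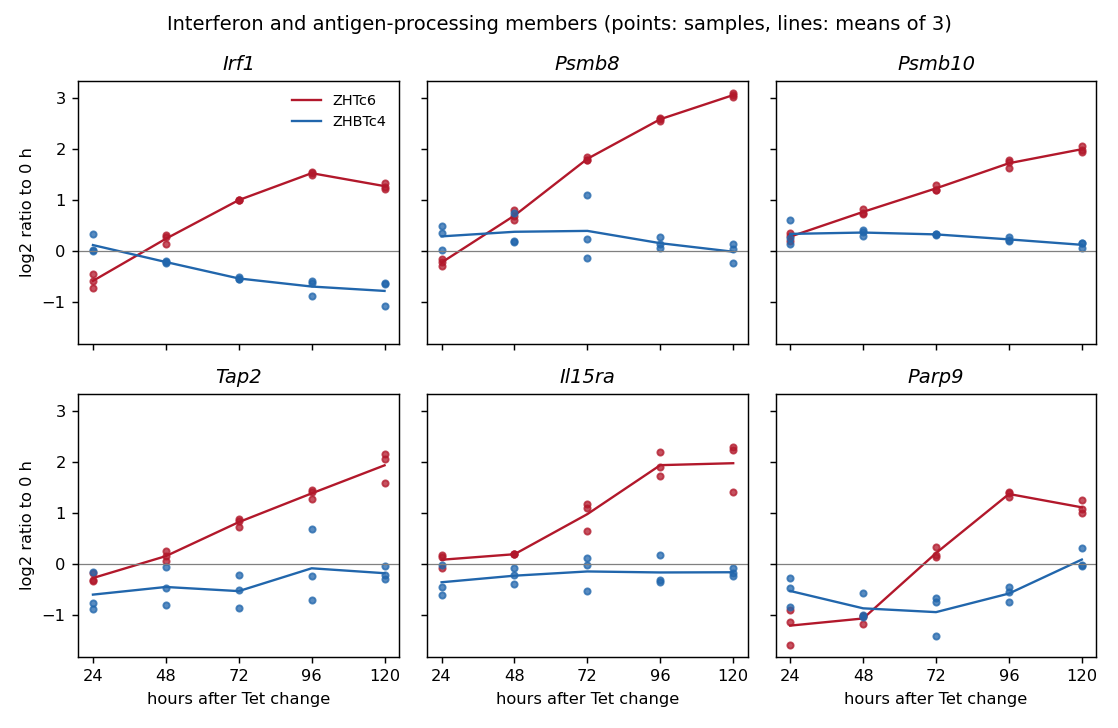
Log2 ratio to 0 h over time for *Irf1*, *Psmb8*, *Psmb10*, *Tap2*, *Il15ra* and *Parp9* in ZHTc6 cells (red) and ZHBTc4 cells (blue), with samples as points and means of 3 as lines. The ZHTc6 points of *Psmb8* lie almost on each other, and *Parp9* starts below 0.

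The 250 bases before the start of 3 of these genes are shown because each holds a searched motif, whereas the promoter of *Psmb10* and the second promoters of *Irf1* and *Il15ra* held none. They are again from RefSeq (GRCm38.p6) on the strand of the gene. Capitals mark the Stat motif TTCNNNGAA in *Irf1* (90 to 82 bases before the start) and *Psmb8* (97 to 89 bases before it), a TATA motif farther upstream in *Psmb8*, and the interferon regulatory motif GAAANNGAA, read on the opposite strand, in *Il15ra* (149 to 141 bases before it).
*Irf1* (chr11:53769764-53770013, plus strand): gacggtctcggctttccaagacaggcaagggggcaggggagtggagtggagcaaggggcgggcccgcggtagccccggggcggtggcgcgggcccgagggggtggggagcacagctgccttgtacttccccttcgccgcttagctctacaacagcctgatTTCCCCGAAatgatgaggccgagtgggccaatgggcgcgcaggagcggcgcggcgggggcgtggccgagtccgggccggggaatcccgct
*Psmb8* (chr17:34197945-34198194, plus strand): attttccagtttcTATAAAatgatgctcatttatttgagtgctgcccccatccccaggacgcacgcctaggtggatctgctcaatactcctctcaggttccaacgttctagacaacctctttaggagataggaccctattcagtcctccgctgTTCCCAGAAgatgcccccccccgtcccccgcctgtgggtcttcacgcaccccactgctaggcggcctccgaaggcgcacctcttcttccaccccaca
*Il15ra* (chr2:11705043-11705292, plus strand): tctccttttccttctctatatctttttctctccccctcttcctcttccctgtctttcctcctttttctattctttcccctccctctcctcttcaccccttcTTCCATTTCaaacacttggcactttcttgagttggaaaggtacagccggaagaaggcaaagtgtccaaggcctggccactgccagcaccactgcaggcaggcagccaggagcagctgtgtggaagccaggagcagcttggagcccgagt

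Genes of mesenchyme gave 4 members out of 14 named genes. Of the 18 oligos of the list 5 were higher (8.87% of all oligos) and 2 lower (11.3%) at 72 h, with a median of 0.22, and the median late mean was 0.80. Outside the set *Snai2* (0.11), *Twist2* (0.04), *Prrx1* (-0.03) and *Zeb1* (-0.39) had late means near or below 0. By contrast, *Acta2* (1.53), *Tpm1* (1.42), *Snai1* (1.33) and *Tpm2* (1.11) had late means as high as those of many members. These stood at 2.02, 1.01, 1.51 and 3.00 in ZHBTc4 cells at 120 h, above the limit of the choice. *Fn1*, which encodes fibronectin, was low in both lines at first, with -1.70, -1.43 and -1.63 in ZHTc6 cells and -2.22, -1.99 and -2.25 in ZHBTc4 cells at 48 h. It was the single member called lower at 72 h in ZHTc6 cells (-0.30, adjusted p = 0.0247), a call lost without any 1 ZHTc6 replicate (-0.28 to -0.33). At 96 h and 120 h the ZHTc6 samples of *Fn1* stood at 0.86, 1.00 and 0.91 and at 2.03, 1.76 and 2.02. The other 2 oligos of *Fn1* had late means of 0.49 and 0.26. *Vim*, the intermediate filament of mesenchymal cells, opened in opposite directions, with -0.59, -0.84 and -0.34 in ZHTc6 cells and 1.86, 2.02 and 1.35 in ZHBTc4 cells at 24 h. By 120 h it stood at 1.68, 1.61 and 1.75 in ZHTc6 cells, against -0.11, 0.29 and -0.34 in ZHBTc4 cells. Its step over 48 h was larger in ZHTc6 cells by 2.14 (standard error 0.10, adjusted p = 4.7e-04).

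*Cdh11*, a cadherin of mesenchyme, did not move between 48 h and 72 h beyond its spread (-0.01, standard error 0.11, adjusted p = 0.937). It then stood at 2.64, 1.82 and 1.94 at 96 h and 3.48, 2.17 and 2.35 at 120 h, against 0.46, 0.22 and 0.20 at 72 h. This jump includes the values that chose the members and has no test. *Fstl1*, a secreted glycoprotein of mesenchyme, had 2 member oligos, with 1.70 and 1.47 as their late means. Both passed at 48 h (0.97 and 0.38) and at 72 h (1.33 and 1.03), although the second lost its call at 48 h without ZHTc6 replicate 1 or 3 (0.32 and 0.35). In ZHBTc4 cells both oligos were lower at 24 h (-1.32 and -1.16).

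Of 22 named genes of the extracellular matrix and its receptors 3 were members. At 48 h 12 of the 25 oligos were lower (26.6% of all oligos) and 2 higher (33.9%). At 72 h 8 were higher (8.87%) and 4 lower (11.3%), with a median of 0.05. The median late mean was 0.58, and basement membrane genes went both ways. *Lamc1* (-0.50), *Lama1* (-0.46), *Nid1* (-0.44), *Hspg2* (-0.32) and both oligos of *Nid2* (-0.04 and -0.41) lay below 0. *Lamb1* (1.16), *Col4a2* (0.82), *Col4a1* (0.36) and *Lama5* (0.17) lay above it. The highest late means outside the set were those of *Thbs1* (2.01) and *Col5a1* (1.80), which stood at 2.33 and 0.65 in ZHBTc4 cells at 120 h. *Sulf1*, a sulfatase that edits heparan sulfate at the cell surface, gave 1.14, 0.98 and 1.17 and 1.09, 0.90 and 1.03 at 72 h for its 2 oligos in ZHTc6 cells, against -1.78, -0.66 and -2.18 and -0.90, -0.61 and -1.48 in ZHBTc4 cells. The 2 lines did not overlap. Both oligos passed at 72 h (1.09 and 1.01), but the first lost its call without any 1 ZHTc6 replicate (1.06 to 1.15) and the second without replicate 1 (0.97). *Itga8*, an integrin chain, rose to 0.63 at 72 h (adjusted p = 0.0115) and lost its call without ZHTc6 replicate 1 or 3 (0.61 and 0.55). *Adam9*, a membrane metalloprotease, was lower at 48 h (-1.18) and stood at -0.29 at 72 h.

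Among the other members at the top of the ranking were *Tnfrsf19*, a receptor of the tumour necrosis factor family, *Dusp4*, a phosphatase of MAP kinases, and *Ddit4*, an inhibitor of mTORC1. *Dusp4* gave -1.73, -1.42 and -1.23 at 24 h, 0.48, 0.75 and 0.76 at 72 h and 1.93, 2.03 and 1.95 at 120 h in ZHTc6 cells. In ZHBTc4 cells it was lower at each tested time, with -0.73, -0.72 and -0.78 at 72 h. *Ddit4* was up by 0.99 at 48 h (adjusted p = 1.4e-04) and by 1.21 at 72 h (adjusted p = 4.6e-04). *Tnfrsf19* averaged 1.31 ± 0.22 (SD, n = 3) at 72 h and stood at 2.73, 1.82 and 2.65 at 120 h, and its rise of 1.31 at 72 h was lost without any 1 ZHTc6 replicate (1.21 to 1.43). *Mcc*, named for colorectal cancers in which it is mutated, rose by 0.95 at 72 h (adjusted p = 9.1e-04), and *Greb1*, an oestrogen-responsive gene in breast cancer cells, by 0.82 (adjusted p = 0.00263). *Cnn1*, a calponin of smooth muscle, was higher on both days (0.93 and 1.42). *Cpe*, a carboxypeptidase that processes prohormones, rose by 0.93 at 72 h (adjusted p = 0.0191, lost without any 1 ZHTc6 replicate, 0.82 to 0.98). *Hsd17b12*, an enzyme of fatty acid elongation, rose by 1.26 at 72 h and lost its call without any 1 ZHTc6 replicate (1.20 to 1.37). *Tdrd5*, a tudor-domain protein of germ cells, rose by 0.94 (adjusted p = 0.0046). *Klhl23*, of the kelch-like family, rose by 1.18 (adjusted p = 0.00191). *Lrrc58*, with leucine-rich repeats, was lower at 48 h (-1.21) and higher at 72 h (0.71, lost without ZHTc6 replicate 1, 0.62). *Marcks*, a substrate of protein kinase C at the membrane, was likewise lower (-0.44) and then higher (0.54), and each of these calls was lost without ZHTc6 replicate 1 or 3 (-0.42 and -0.25 at 48 h, 0.47 and 0.55 at 72 h).

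Several lists of basic cell functions held members that were low on the first days. Of 21 named genes for protein entry and folding in the endoplasmic reticulum 6 were members (*Dnajc10*, *Poglut2*, *Ppic*, *Rcn1*, *Sec62* and *Ssr3*), and each was lower at 48 h, although *Poglut2* lost its call without ZHTc6 replicate 2 or 3 (-0.49 and -0.41). *Ssr3* gave -1.66, -1.57 and -2.29 at 48 h and 1.17, 1.02 and 1.10 at 96 h, and *Sec62*, part of the channel for entry of proteins, gave -2.55, -1.12 and -2.14 and 1.07, 0.74 and 1.00. All 3 samples of each gene lay below 0 at 48 h, while their place above 0 at 96 h is set by the choice of the members. Of the 28 oligos of the list 18 were lower at 48 h and 17 were higher at 72 h, against 26.6% and 8.87% of all oligos. Its median was -0.63 at 48 h and 0.39 at 72 h.

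RNA-binding proteins, most of them nuclear, gave 3 members of 20 named genes (*Hnrnpa3*, *Hnrnpa2b1* and *Grsf1*, the last of which binds mitochondrial RNA). Of their 36 oligos 27 were lower at 48 h (26.6% of all oligos) and 27 stepped up between 48 h and 72 h (24.2%), but 6 were higher at 72 h (8.87%). Its median was -0.07 at 72 h, and the median of the mean of 96 h and 120 h was 0.26. *Hnrnpa2b1* was among the 6 oligos higher at 72 h, with 0.64, 0.76 and 0.72 (adjusted p = 0.0069, lost without ZHTc6 replicate 2, 0.68). *Grsf1* was another, with a mean of 0.43 (limma, adjusted p = 0.0317).

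High mobility group and variant histone proteins gave 3 members of 9 named genes and ubiquitin conjugation 4 of 16. *Hmgb3*, which bends DNA, averaged -1.59 ± 0.152 at 48 h and 0.04 ± 0.117 at 72 h in ZHTc6 cells, against 0.68 ± 0.305 and -0.11 ± 0.209 in ZHBTc4 cells (SD, n = 3 each), so that the lines moved in opposite directions. The difference of the steps was 2.43 (standard error 0.15, adjusted p = 5.3e-04). *Hmgn2*, which binds nucleosomes, was higher at 72 h in ZHTc6 cells by 0.78 (adjusted p = 0.00213) and was also 1 of 2 members called higher in ZHBTc4 cells at all 4 tested times. *Itch* and *Hace1*, both ubiquitin ligases, were lower at 48 h (-1.42 and -1.75), as were *Ube2k* and *Ube2d3*, ubiquitin-conjugating enzymes (-0.80 and -0.72). Of these 4, *Ube2k* (0.85) and *Itch* (0.39) passed at 72 h, and *Itch* lost its call without any 1 ZHTc6 replicate (0.35 to 0.44). Small GTPases gave *Rala* and *Rhoq* out of 23 named genes, both lower at 48 h (-0.77 and -0.74).

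Both 96 h and 120 h chose the members, so the difference between them is given as a description and nothing is read from it. The mean at 120 h lay above that at 96 h in 69 members and below it in 81. The median difference was -0.02, against 0.004 over all oligos. The 120 h pair of ZHTc6 replicate 1 carries a doubtful number. The genes named next were picked by the size of this difference among members past the threshold of the fit, and no call is given for them. *Fn1* stood higher at 120 h by a mean of 1.02. *Ppic*, a prolyl isomerase of the secretory pathway, gave 0.84, 0.77 and 0.79 at 96 h and 1.77, 1.47 and 1.58 at 120 h. *Slc18a1*, a vesicular monoamine transporter, *Pdgfrl*, a relative of a growth factor receptor, and *Olfm1*, an olfactomedin of neurons, had mean differences of 0.71, 0.69 and 0.64.

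*Enpp2* was at the other end, with 3.43, 2.13 and 2.64 at 96 h and 1.22, 0.73 and 0.56 at 120 h (mean difference -1.90), and its samples of both times did not overlap. *Serinc5*, a membrane protein, *Trim12c*, *Efr3a* and *Klhl23* had mean differences of -0.87, -0.77, -0.65 and -0.65.

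**Figure D5:**
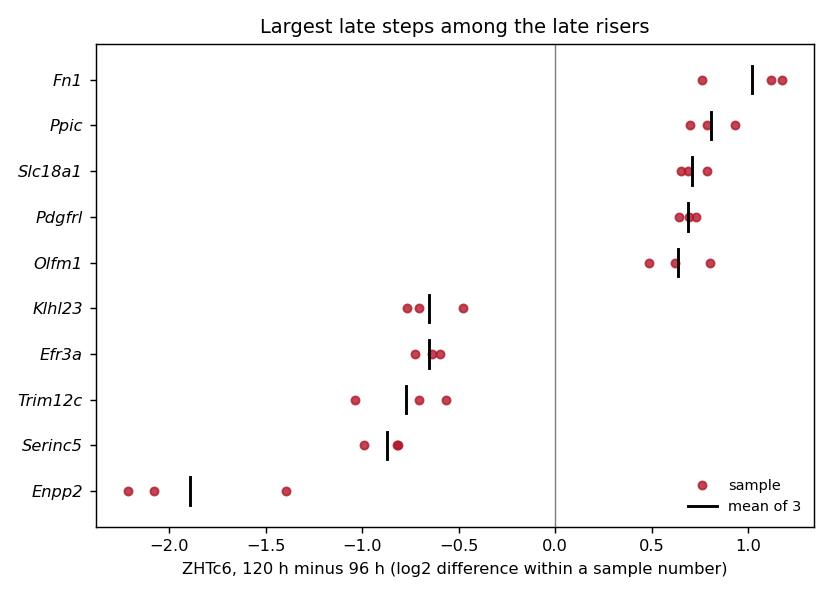
Log2 difference between 120 h and 96 h in ZHTc6 cells within each sample number, for 10 members (points are samples, bars are means of 3). They are the 5 with the largest difference in each direction among those past the threshold of the fit. *Fn1* stands at 1.02 and *Enpp2* at -1.90, and no point lies across 0 from its mean.

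In ZHBTc4 cells, where *Oct3/4* was shut off, the members were called in both directions. At 24 h 6 were higher (against 7.09% of all oligos) and 26 lower (8.18%), and at 48 h 15 were higher (13.5%) and 46 lower (13.4%). Without ZHBTc4 replicate 3 the lower counts were 14 at 24 h and 26 at 48 h. At 72 h 15 were higher (20.3%) and 58 lower (20.4%), and at 96 h 34 were higher (23.4%) and 50 lower (23.7%). The limit on ZHBTc4 at 120 h bounds the members from above, which favours lower calls over those of all oligos. Of the members 17.3%, 30.7%, 38.7% and 33.3% were lower at 24 h, 48 h, 72 h and 96 h. The other 3691 oligos that met both limits were lower more often, with 26.2%, 37.3%, 48.6% and 52.2%. Of the members 71 were lower at 1 or more of the 4 times (47.3%, against 29.7% of all oligos), 40 were higher at 1 or more (26.7%, against 29.5%) and 45 were called at none (30%, against 42.3%).

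Lower at all 4 times were 15 members (10%, against 4.84% of all oligos), and this count was 9 without ZHBTc4 replicate 1, 6 without replicate 3 and 8 with ZHBTc4 cells fitted alone. Neither this share nor that for 1 or more times was computed for the other oligos that met both limits. *Cth*, which makes cysteine from cystathionine, was the lowest, with -2.86, -2.85 and -3.15 at 24 h and -3.61, -3.51 and -3.80 at 96 h in ZHBTc4 cells. In ZHTc6 cells it gave -0.65, -0.88 and 0.13 at 24 h and 1.28, 1.17 and 1.31 at 96 h. *Cpe* gave -3.78, -3.46 and -3.49 at 96 h in ZHBTc4 cells, and *Lrig3*, a membrane protein with leucine-rich repeats, gave -2.58, -1.86 and -2.37. These 3 genes thus fell by over 2 on the log2 scale in ZHBTc4 cells at that time (limma, adjusted p of the fall between 8.1e-07 and 2.7e-05). The ZHTc6 values at 96 h chose the members, so their place above 0 there is set by the choice. *Armcx4* and *Armcx2*, which lie near each other on the X chromosome with 3 genes between them, were both lower at all 4 times, with -1.82 and -1.34 at 96 h. *Sqor*, a mitochondrial enzyme of sulfide oxidation, was called higher at all 4 times, as was *Hmgn2*.

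The starting levels of both lines were compared on the 6 arrays of 0 h RNA against reference RNA, which were not used to choose the members. The same 0 h RNA may, however, be on these arrays and on those of the time course. A low 0 h level in ZHTc6 cells or a high one in ZHBTc4 cells favours the choice as a member. The shares below thus cannot be read apart from the choice, and none was computed for the other oligos that met both limits. Of the 146 genes 127 had a probe there, with 195 probes tested. At 0 h 9 probes were higher in ZHTc6 cells (4.62%, against 4.23% of all probes) and 28 were lower (14.4%, against 4.04%), together from 34 genes. No probe of a member was called lower without any 1 ZHTc6 replicate or with a replicate block (0 in each case by limma, with 44 to 53 lower at an unadjusted p under 0.05), and the count was 3, 9 and 49 without ZHBTc4 replicate 1, 2 and 3. The higher count was likewise 0 in each of these cases and without ZHBTc4 replicate 1 (16 to 21 at an unadjusted p under 0.05), and 3 and 32 without ZHBTc4 replicate 2 and 3. The calls of the probes named next are therefore lost without any 1 ZHTc6 replicate or with the block. *Cth* had 0 h levels of 1.17, 1.42 and 1.55 in ZHTc6 cells, against 3.07, 2.93 and 3.31 in ZHBTc4 cells, on the log2 scale relative to the reference RNA (difference -1.73, standard error 0.15, adjusted p = 0.00947). *Tcf4*, a basic helix-loop-helix factor (-1.56), *Rala* (-1.54), *H3f3b*, a replacement histone (-1.49), and *Lmbrd1*, a lysosomal protein of vitamin B12 export (-1.46), followed.

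*Tnpo1* was the most raised at 0 h, with levels of 2.37, 2.21 and 2.72 in ZHTc6 cells, against -0.61, 0.13 and 1.17 in ZHBTc4 cells (difference 2.21, standard error 0.45, adjusted p = 0.0403). The other 4 probes of *Tnpo1* lay between -0.37 and 0.45 and were not called. *Atp10a*, a lipid flippase, was higher by 1.90, *Psmb10* by 1.13, *Gja1*, a gap junction protein, by 1.07 and *Irf1* by 0.93. A second probe of *Gja1* stood at 0.33 and was not called. The ZHTc6 and ZHBTc4 samples did not overlap for these 5 probes. The oligos of the time course and the probes of the reference arrays that carry a name need not be the same.

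Other oligos of the member genes that were not taken into the set give a view of the same genes by other sequences. There were 60 such oligos of 42 genes, of which 39 fell short in rank, 10 failed the 24 h limit and 11 the ZHBTc4 limit. Their late mean in ZHTc6 cells was above 0 for 49 (45.4% of all oligos) and above 0.5 for 17 (9.37% of all oligos), with a median of 0.34, against -0.03 over all oligos. A second oligo of a gene thus did not always stand as high. Besides *Fstl1* and *Sulf1*, 2 genes had 2 member oligos. Those of *Gja1* differed at 24 h (-1.72 and -0.14) and both were higher at 72 h (0.50 and 0.75). Those of *Ttc3*, a ubiquitin ligase, were both lower at 48 h (-1.51 and -1.27). For 81 members the name came from tables of the study and for 69 from the array annotation, and where both name an oligo they agreed for 1135 of 1360.

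EB5 ES cells treated with siRNA against *Tcl1*, a coactivator of Akt, were compared with EB5 cells treated with siGFP, with 1 array each and thus no test. At 560 uM 1 probe of member genes was higher by over 1 (2.43% of all probes) and 7 were lower (2.28%), and at 1120 uM 2 were higher (3.89%) and 6 lower (2.56%). The medians over the 195 probes were -0.03 and 0.02. A probe of *Obi1*, a ubiquitin ligase of replication origins, stood at 0.26 and 0.27 in siTcl1 cells, against -4.45 in siGFP cells, so that the low value was that of the siGFP array. Probes of *Ube2k* (-1.97 and -1.71), *Poglut2* (-1.69 and -1.86) and *Cdh11* (-1.08 and -1.11) were lower by over 1 at both doses. Other probes of *Ube2k* and *Obi1* did not share these changes, while *Poglut2* and *Cdh11* had no other probe. Those of *Ube2k* differed from siGFP by 0.16 and 0.21 and by -0.28 and -0.44, and another of *Obi1* by 0.26 and 0.44.

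Promoters in RefSeq were found for 108 of the member genes (146 promoters of 300 bases, 250 before and 50 after the start), and exact matches to motifs were counted on both strands. The octamer ATGCAAAT, which Oct3/4 binds, was in 5 of them (3.42%, against 1.38% of the promoters of named genes on the array and 1.74% of all 32851 promoters). The interferon regulatory motif GAAANNGAA was in 16 (11%, against 6.62% and 8.56%), the Stat motif TTCNNNGAA in 13 (8.9%, against 6.39% and 8.3%) and the Tcf and Lef motif CTTTGAT in 7 (4.79%, against 2.04% and 3.73%). The Sox motif CATTGTT was in 3 (2.05%, against 2.02% and 3.78%), the T-box motif AGGTGTGA in 1 (0.685%, against 0.897% and 1.28%), the GATA motif AGATAAG in 2 (1.37%, against 1.79% and 3.04%) and TATAAA in 14 (9.59%, against 7.66% and 13.6%). The Stat and interferon regulatory motifs can share bases. These shares were not tested, and a match is not a site.

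The 5 promoters with an octamer are shown with up to 20 bases to each side (GRCm38.p6, 5′ to 3′ on the strand of the gene, octamer in capitals), since they hold the sequence that the induced factor binds. The octamer lies on the strand of the gene in *H3f3b* and *Srebf2*, a regulator of sterol synthesis, and on the opposite one in *Asb4*, *Pfkfb3*, an enzyme that controls glycolysis, and *Zswim6*.
*Asb4* (chr6:5383297-5383344, plus strand): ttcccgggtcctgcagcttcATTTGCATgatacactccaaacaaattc
*H3f3b* (chr11:116024551-116024598, minus strand): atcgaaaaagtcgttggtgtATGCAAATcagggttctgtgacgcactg
*Pfkfb3* (chr2:11554141-11554179, minus strand): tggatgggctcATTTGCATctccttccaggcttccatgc
*Srebf2* (chr15:82147053-82147100, plus strand): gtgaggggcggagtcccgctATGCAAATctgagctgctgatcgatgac
*Zswim6* (chr13:107890237-107890284, minus strand): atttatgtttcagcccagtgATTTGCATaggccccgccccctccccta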

How the data were processed

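The submitters' processing notes name Agilent Feature Extraction, with no version given in the sources used here. The files as deposited hold 1 value per spot, log10 of Cy5 relative to Cy3 and bounded at -2 and 2, and background and dyes had been dealt with before deposit. For this report they were turned to log2 of the time point relative to 0 h, and the mean of both dye orientations gave the 3 samples per line and time. The correlation of both arrays of a pair ran from 0.205 to 0.789 in ZHTc6 cells and from 0.053 to 0.835 in ZHBTc4 cells. On reference arrays the sign was turned to the sample over reference RNA, and each 0 h array was centred on its median. Signal intensities were not used, so no filter on weak signal was made. Precision is limited by how many arrays there are. Oligos below the lowest known oligo number (216) and those bounded on over 0.5 of all arrays (211) were taken out. Tests ran on the other 22148, or on 21140 probes of the 0 h arrays.

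Tests were made with limma 3.58.1 in R 4.3.3 (statmod 1.5.0), both lines in one fit, with p-values of its moderated test adjusted over all oligos (Benjamini-Hochberg) and a threshold of 0.05. Differences between times were taken within a sample number, since the labels give times of one number the same 0 h RNA. Deviations of same-numbered samples correlated from 0.101 to 0.521 in ZHBTc4 cells and from -0.222 to 0.391 in ZHTc6 cells. A ZHTc6 pair labelled sample 2 at 120 h beside sample 1 at 0 h was taken as replicate 1. The Methods call the 3 samples independent. The siRNA arrays, 1 each, were not tested.

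On simulated data of 22148 oligos the test at 72 h recovered 78% of changes of 1 and 98% of changes of 2 on the log2 scale, the step from 48 h to 72 h 55% and 97%, and its difference between the lines 12% and 78%. In the simulation 200 oligos were changed, whereas in the real data 20% and 20.1% of all oligos were called in the difference between the lines. The adjusted threshold is stricter when few oligos change. These shares thus do not give the rate of missed changes in the real data.

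The members and all gene lists were chosen with earlier results of these data known. Names came from the array annotation where it gives 1 gene and otherwise from tables of the study, so that genes of those tables are named more often. Genes named in the text are the 25 members of the highest rank, members of the gene lists, the largest steps, falls and 0 h differences among those called, oligos at the border of the ranking and genes with several oligos. *Asb4*, *Obi1*, *Armcx2*, *Sqor*, *Lrig3*, *Dennd11*, *Pfkfb3*, *Srebf2* and *Zswim6* were named after their values were seen. Alternatives were centring of each array, each dye alone, all times in one fit with or without a replicate block, the line alone, no filter on bounded oligos and leaving out each replicate. Promoters are those of RefSeq.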

Additional observations from a re-analysis of the deposited data

Results flagged for a closer look

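The step between 48 h and 72 h differed between the lines by a test of the difference itself (limma, adjusted p under 0.05). It was larger in ZHTc6 than in ZHBTc4 cells for 116 of 150 members (77.3%, against 20% of all oligos). Of the other oligos that met both limits of the choice 49.3% had such a larger step, so it was common beyond the members. The members with the largest differences were *Armcx4* (3.19), *Hnrnpa3* (2.94), *Ssr3* (2.48), *Hmgb3* (2.43) and *Dennd11* (2.43), all on the log2 scale. A second oligo of *Hnrnpa3*, outside the set, stepped up by 0.06 in ZHTc6 cells (limma, adjusted p = 0.73). *Dennd11* gave -0.98, -1.20 and -1.18 at 48 h and 0.83, 0.75 and 0.79 at 72 h in ZHTc6 cells, against -0.45, -0.36 and -0.67 and then -0.84, -0.62 and -1.56 in ZHBTc4 cells. All 3 samples of ZHTc6 cells moved up and all 3 of ZHBTc4 cells moved down. Groups of 3 samples are too small for a check for single samples that stand apart.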

How the results depend on the processing

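Of the counts and named-gene results recomputed, none changed direction under the alternatives run for it. The siRNA values, motif shares, other oligos and medians of the lists were not recomputed. With 1 replicate left out, the count of members lower at 48 h was 67 to 85 and higher at 72 h 47 to 100. An upward step to 72 h was called for 114 to 126 members, and a larger step in ZHTc6 cells for at least 101. Lower in ZHBTc4 cells at all 4 times were 6 to 16, and 0 to 49 probes were lower at 0 h in ZHTc6 cells. Of the 150 members 136 to 145 were chosen again. In the main fit 24 members were past the threshold upwards from 96 h to 120 h (16%, against 10.8% of all oligos). Both times chose the members, so nothing is read from this count. It was 8 to 26 with 1 replicate left out, 8 from Cy3 arrays of the time point and 9 without the 120 h pair that carries sample number 2. With all times in one fit it was 7 with no replicate block and 10 with a replicate block, whose correlation was 0.2138. Lower at all 4 times in ZHBTc4 cells were 8 with the line alone, a fit that could not be made for the difference between the lines. At 0 h the replicate block left 0 probes lower, although the sample numbers of different lines mark no shared culture. When only the annotation gave names, 69 members were chosen again, and 116 from Cy3 arrays of the time point. With each array centred on its median, 210 of 212 calls of named genes held. Fewer held elsewhere, with 162 of 222 without ZHTc6 replicate 3 and 163 of 222 without ZHTc6 replicate 1. From Cy3 arrays of the time point 172 of 212 held, and with all times in one fit and no replicate block 177 of 212. Of the calls at 0 h, 0 of 10 held with the replicate block. The causes of these shifts were not tested. The number of arrays, 3 samples per line and time, limits what can be called.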
